A study of Homo sapiens with 18 samples.

Results

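The ERK output and feedback inhibitors described here are 10 genes listed by name, all of them described: DUSP4, DUSP5, DUSP6, SPRY1, SPRY2, SPRY4, SPRED2, PHLDA1, ETV4 and ETV5. The list was drawn up with earlier results of these data known. They are 10 of the 63657 gene identifiers in the deposited expression table, and all 10 passed the filter on low values that left 19799 genes for testing. RNA-seq was available for 18 libraries from human neuroblastoma cells, with 3 libraries for each of 6 lines. Neuroblastoma is a childhood tumour of the sympathetic nervous system. The resistant lines are ER5, ER28, ER29, ER42 and ER47, 5 in all, and came from tumours that SY5Y-TrkB cells formed under the skin of 6-week-old athymic nu/nu mice and that grew back during treatment with entrectinib, an oral inhibitor of the TRK, ROS1 and ALK receptor tyrosine kinases. ER5, ER28 and ER29 came from mice given 60 mg/kg by mouth every 4 hours, and ER42 and ER47 from mice given the same dose every 6 hours. In culture these lines were taken from 10 nM entrectinib up to 750 nM, and clones were then kept in 200 nM until harvest. The parental line is SY5Y_BR6, a derivative of the SH-SY5Y neuroblastoma line that carries the BDNF receptor TrkB (NTRK2); the labels record no mouse passage for it and do not state a drug in its culture. Resistance, the presence of drug at harvest, growth in a mouse and culture history therefore separate the same libraries and cannot be told apart. Each resistant line comes from 1 tumour. Nothing in the labels tells whether the libraries within a line stem from separate cultures; p-values here measure the spread between these libraries, which may be technical.

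TrkB and other receptor tyrosine kinases signal through RAS, RAF and MEK to the ERK kinases. Active ERK raises transcription of its own brakes, which makes their mRNAs a widely used readout of the pathway's output. DUSP4 and DUSP5 are nuclear phosphatases that inactivate MAP kinases and DUSP6 is a cytoplasmic phosphatase specific for ERK. The Sprouty proteins (SPRY1, SPRY2, SPRY4) and SPRED2 act upstream and dampen activation of RAS and RAF. PHLDA1 is a pleckstrin-homology-like protein induced by ERK signalling, and ETV4 and ETV5 are ETS transcription factors of the PEA3 group that carry the signal into the nucleus. Capicua (CIC) is a repressor that ERK signalling relieves, and ETV4, ETV5, DUSP6 and SPRY4 are among its known targets in human cells.

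Promoter sequence is shown for 3 genes that span the range of responses described below: DUSP6, near its parental level in 1 resistant line; SPRY4, lower in each of the 5; and PHLDA1, the most reduced. Each sequence is the 250 bases that end just before the first annotated start site in RefSeq (GRCh38.p14), written 5′ to 3′ on the strand of the gene. DUSP6 lies at chr12:89352502-89352751 on the minus strand, SPRY4 at chr5:142324248-142324497 on the minus strand and PHLDA1 at chr12:76031777-76032026 on the minus strand. Capitals mark a match to the CIC octamer, searched on both strands as TGAATGAA, TGAATGGA, TCAATGAA and TCAATGGA.
DUSP6: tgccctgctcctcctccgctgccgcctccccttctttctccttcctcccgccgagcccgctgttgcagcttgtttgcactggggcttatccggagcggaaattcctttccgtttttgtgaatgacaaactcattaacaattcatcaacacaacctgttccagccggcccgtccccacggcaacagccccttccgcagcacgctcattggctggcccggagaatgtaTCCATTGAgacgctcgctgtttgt
SPRY4: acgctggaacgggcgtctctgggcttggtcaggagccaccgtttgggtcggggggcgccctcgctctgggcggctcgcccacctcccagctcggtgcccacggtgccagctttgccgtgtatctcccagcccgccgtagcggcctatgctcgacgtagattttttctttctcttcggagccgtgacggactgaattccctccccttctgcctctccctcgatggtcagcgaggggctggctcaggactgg
PHLDA1: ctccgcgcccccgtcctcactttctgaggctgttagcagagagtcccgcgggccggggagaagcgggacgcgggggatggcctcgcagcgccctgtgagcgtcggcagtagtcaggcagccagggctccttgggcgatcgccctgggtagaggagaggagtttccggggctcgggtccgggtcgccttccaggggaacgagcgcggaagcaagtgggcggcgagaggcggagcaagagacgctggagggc
The DUSP6 window held 1 match, TCCATTGA, the reverse complement of one of the 4 forms, with its first base 24 bases before the start site (position -24). The SPRY4 and PHLDA1 windows held none. RefSeq promoter windows were searched for 6 of the 10 genes, 10 windows in all. No window of DUSP4, DUSP5, ETV4 or ETV5 was searched, so the counts here say nothing of those genes. Beside the DUSP6 window, the other 9, of SPRY1, SPRY2, SPRY4, SPRED2 and PHLDA1, had no CIC octamer. Across the genome, 3.18% of 35116 windows of the same length held a match. An ETS site (CCGGAAGT), an AP-1 site (TGANTCA), a cyclic-AMP response element (TGACGTCA) and a CArG box were each absent from all 10 windows and present in 3.42%, 6.57%, 1.65% and 1.16% of all windows. These are letter matches in short windows, and say nothing of binding.

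The deposited values are FPKM, expression scaled to transcript length and to the size of the library, so levels can be compared between genes per length. The files give no read totals. The number of genes at FPKM 1 or more was 16041 to 18265 per library, the 10 highest genes took 21.5% to 39.8% of the summed FPKM, and the steps between low values put the libraries' depth at an estimated 1 to 1.94 times that of the first parental library. NTRK2, the receptor named in the line's label, had line means of 200 to 391 FPKM in the resistant lines against 411 ± 9.86 FPKM in the parental line. It was called lower in 4 of the 5 resistant lines (limma, Benjamini-Hochberg adjusted p under 0.05). Its difference in the mean of the 5 lines was -0.58 on the log2(FPKM + 1) scale, and -0.22 after quantile normalization. Libraries of 1 line correlated at 0.953 to 0.975 across genes on the log2(FPKM + 1) scale and libraries of different lines at 0.892 to 0.964. Of 8 noradrenergic neuroblastoma markers, 7 reached FPKM 1, and their summed level was 1246 to 2038 FPKM in the resistant libraries against 1985 to 2051 in the parental ones. That sum covers moves in opposite directions. Of the 7 tested, 3 were higher, 2 lower and 2 not called in the mean of the 5 lines. Their log2(FPKM + 1) differences there ran from -1.79 to 2.76. TH, which makes the catecholamine precursor DOPA, stayed at or under 0.582 FPKM. None of 5 endothelial and none of 5 blood markers reached FPKM 1, and PECAM1 and TYROBP were at 0 in every library. Schwann cell and glial markers summed to 2.67 to 5.30 FPKM in the resistant libraries against 1.80 to 2.22 in the parental ones, with 3 of 7 reaching FPKM 1, and fibroblast markers to 38.6 to 96.9 against 38.6 to 46.3, with 6 of 7 reaching FPKM 1. In the mean of the 5 lines, 5 of the 6 tested fibroblast markers were higher and 1 lower. The part of these shifts in the values below was not tested. In bulk RNA, fewer cells that express a gene and less RNA per cell cannot be told apart.

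All 10 genes were lower than in the parental line in ER5 and in ER47, 9 were lower in ER29, 7 in ER28 and 6 in ER42, and none was higher in any line (limma, Benjamini-Hochberg adjusted p under 0.05 over all genes tested). Over all genes tested, 27.5% were called lower in ER5, 28.1% in ER47, 27.1% in ER29, 20.9% in ER28 and 22.8% in ER42, so each count of members exceeds the background share. Because the genes were chosen with earlier results of these data known, this excess is a description and not a test. After quantile normalization the lower share was 23.3% in ER5, 21.7% in ER47, 22.8% in ER29, 15.7% in ER28 and 18.4% in ER42. Genes called higher then made up 54.3%, 50.4%, 50.6%, 51.0% and 46.7% of the calls in those lines, in place of 47.1%, 40.1%, 46.0%, 41.1% and 42.6%. Genes called higher made up 24.5%, 18.8%, 23.1%, 14.6% and 16.9% of all genes in those 5 lines in the same order. These are broad differences between lines, and each comparison uses the same 3 parental libraries. The median difference of the 10 genes from the parental line was -2.69 in ER5, -1.50 in ER47, -1.71 in ER29, -0.79 in ER28 and -0.60 in ER42 on the log2(FPKM + 1) scale. The median over all genes lay between -0.01 and 0.04 in the 5 lines. In the mean of the 5 lines, all 10 genes were lower and none higher, against 28.9% and 23.9% of all genes (24.0% lower after quantile normalization), with a median difference of -1.47. The error of that mean is the spread of libraries within lines and not the spread between lines. A pseudocount of 1 understates the change of genes with low values. The call of lower in all 5 lines separately was met by 4 genes, DUSP4, DUSP5, SPRY4 and PHLDA1, and by 12.3% of all genes. By line, all 3 resistant libraries lay below all 3 parental ones for 10 genes in ER5, ER29 and ER47, against 30.5%, 31.1% and 33.1% of all genes, and for 7 in both ER28 and ER42, against 28.8% and 28.4%. For 5 genes, those 4 and SPRED2, every resistant library lay below every parental library, as it did for 15.9% of all genes.

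**Figure D1:**
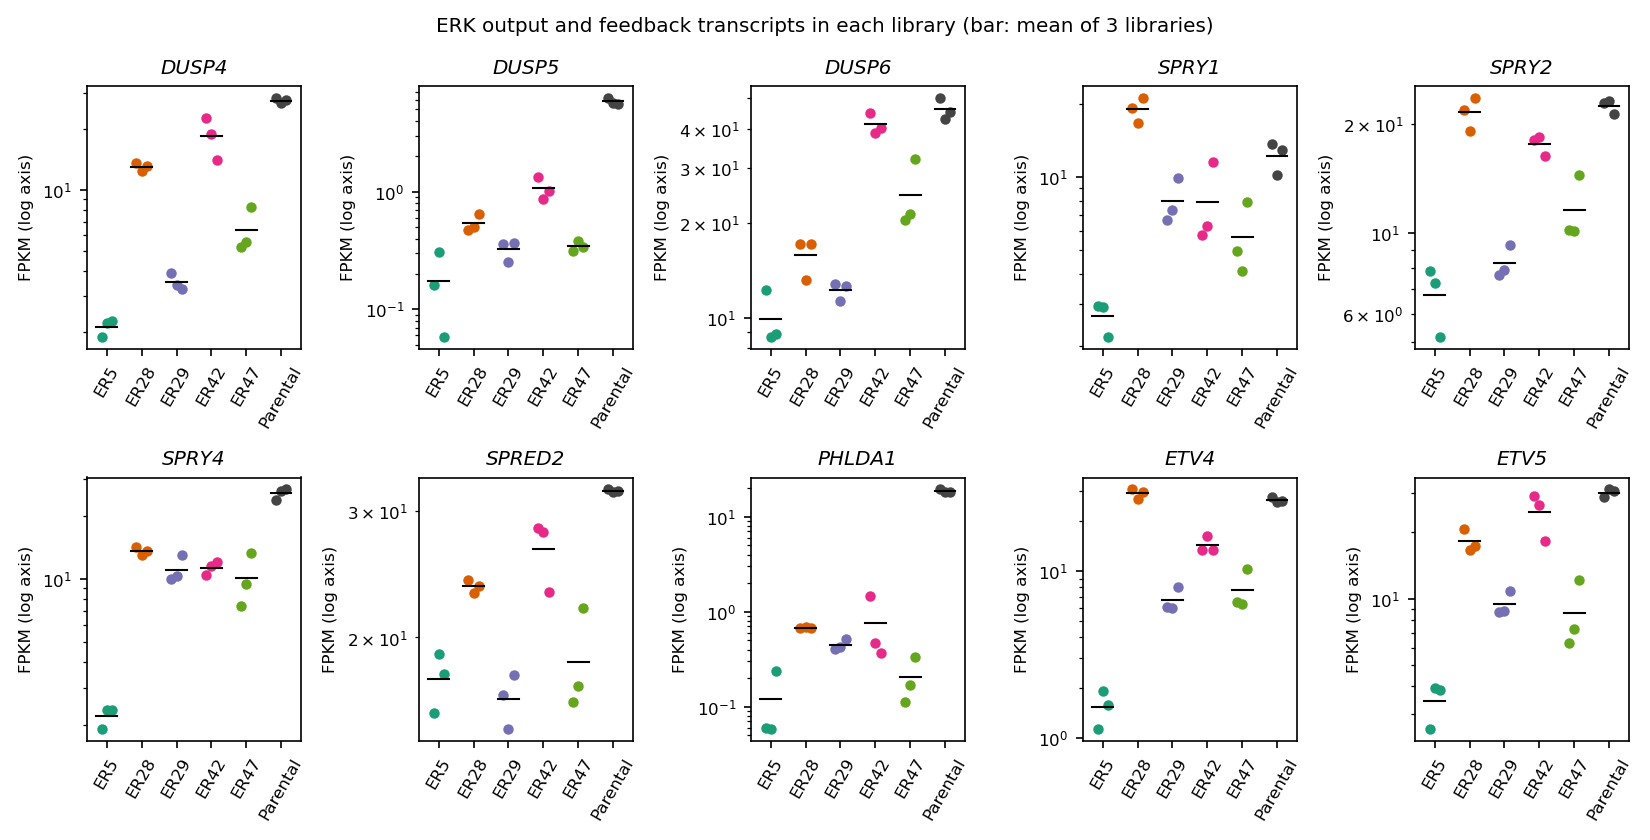
FPKM of each of the 10 genes in each library (points, log axis), with the 5 resistant lines to the left of the parental line and a bar at each line's mean of 3 libraries. PHLDA1 lay between 0.0587 and 1.45 FPKM in the resistant libraries and between 18.01 and 19.4 in the parental ones, while DUSP6 in ER42 overlapped the parental values.

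Among the phosphatases, DUSP4 and DUSP5 were lower in each of the 5 resistant lines and DUSP6 in 4 of them. DUSP4 had 1.89, 2.22 and 2.27 FPKM in ER5, 13.5, 12.4 and 13.1 in ER28, 3.90, 3.40 and 3.26 in ER29, 22.6, 18.9 and 14.1 in ER42, 5.27, 5.53 and 8.22 in ER47, against 28.4, 26.7 and 27.7 in the parental line. Every resistant library was below every parental library, and the line means stood in the order ER5, ER29, ER47, ER28, ER42 and parental, with each neighbour called different from the next by limma, though 3 of these calls depended on the setting. That between ER5 and ER29 was lost after quantile normalization (limma BH-adjusted p = 0.128) and without replicate 1 or 2 of ER5 or of ER29 (0.0520 to 0.0811). The difference of DUSP4 from the parental line on the log2(FPKM + 1) scale was -3.20 ± 0.15 (adjusted p = 4.09e-10) in ER5, -1.03 ± 0.15 (adjusted p = 7.98e-05) in ER28, -2.66 ± 0.15 (adjusted p = 4.07e-09) in ER29, -0.57 ± 0.15 (adjusted p = 0.00718) in ER42, and -1.98 ± 0.15 (adjusted p = 9.66e-08) in ER47 (limma, BH-adjusted, ± SE). DUSP5 had 0.161, 0.308 and 0.0580 FPKM in ER5, 0.469, 0.502 and 0.641 in ER28, 0.361, 0.251 and 0.364 in ER29, 1.33, 0.874 and 1.01 in ER42, 0.315, 0.377 and 0.341 in ER47, against 6.26, 5.72 and 5.56 in the parental line. Resistant and parental libraries did not overlap for DUSP5, and 1 library of ER5 and none of another resistant line lay under 0.1 FPKM. ER42 was the resistant line with the highest DUSP5 mean, at 18.3% of the parental mean, and ER5 the lowest, at 3.01%. The log2(FPKM + 1) difference of DUSP5 was -2.55 ± 0.12 (adjusted p = 4.21e-10) in ER5, -2.16 ± 0.12 (adjusted p = 4.7e-09) in ER28, -2.37 ± 0.12 (adjusted p = 1.45e-09) in ER29, -1.73 ± 0.12 (adjusted p = 7.68e-08) in ER42, and -2.35 ± 0.12 (adjusted p = 1.87e-09) in ER47 by limma with BH adjustment. These low levels make the size depend on the pseudocount: with 0.1 in place of 1, the DUSP5 differences in ER5, ER29 and ER47 became -4.54, -3.82 and -3.74 on the log2 scale.

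DUSP6 had 12.2, 8.66 and 8.88 FPKM in ER5, 17.1, 13.2 and 17.1 in ER28, 12.8, 11.3 and 12.6 in ER29, 44.9, 38.8 and 40.4 in ER42, 20.5, 21.4 and 32.2 in ER47, against 50.2, 43.0 and 45.4 in the parental line. The ER42 libraries overlapped the parental ones, whereas the libraries of the other 4 resistant lines lay below them. DUSP6 in ER42 averaged 41.4 ± 3.18 FPKM and in the parental line 46.2 ± 3.67 FPKM (SD, n = 3 each), a log2(FPKM + 1) difference of -0.16 that did not pass the test (95% confidence interval -0.49 to 0.18, limma BH-adjusted p = 0.452) and whose sign turned to 0.027 after quantile normalization. In the other lines DUSP6 fell, with log2(FPKM + 1) differences of -2.12 ± 0.16 (adjusted p = 3.25e-08) in ER5, -1.50 ± 0.16 (adjusted p = 3.33e-06) in ER28, -1.83 ± 0.16 (adjusted p = 2.77e-07) in ER29, and -0.90 ± 0.16 (adjusted p = 0.000219) in ER47 by limma with BH adjustment. DUSP6 stood at 21.5% of its parental mean in ER5 and 89.6% in ER42. Any link between these levels and the CIC octamer in its window was not tested.

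The Sprouty genes differed from one another. SPRY4 was lower in all 5 resistant lines, whereas SPRY1 and SPRY2 were each lower in 3. SPRY4 had 1.91, 2.35 and 2.36 FPKM in ER5, 14.2, 13.0 and 13.6 in ER28, 9.93, 10.3 and 13.0 in ER29, 10.4, 11.5 and 12.1 in ER42, 7.45, 9.43 and 13.3 in ER47, against 23.8, 26.3 and 26.8 in the parental line. No resistant library reached the lowest parental library, and ER5 was set apart from the other 4 lines, at 8.60% of the parental mean against 39.2% to 53.0% in those lines. The SPRY4 difference on the log2(FPKM + 1) scale was -3.06 ± 0.15 (adjusted p = 4.78e-10) in ER5, -0.87 ± 0.15 (adjusted p = 0.000286) in ER28, -1.15 ± 0.15 (adjusted p = 1.18e-05) in ER29, -1.11 ± 0.15 (adjusted p = 3.66e-05) in ER42, and -1.30 ± 0.15 (adjusted p = 4.27e-06) in ER47 by limma with BH adjustment. SPRY2 had 7.88, 7.27 and 5.17 FPKM in ER5, 21.9, 19.2 and 23.6 in ER28, 7.67, 7.93 and 9.26 in ER29, 18.02, 18.5 and 16.3 in ER42, 10.2, 10.1 and 14.5 in ER47, against 22.8, 23.2 and 21.3 in the parental line. ER5, ER29 and ER47 lay below the parental libraries, and ER28 overlapped them. The SPRY2 difference was -1.61 ± 0.14 (adjusted p = 1.74e-07) in ER5, -1.34 ± 0.14 (adjusted p = 1.86e-06) in ER29, and -0.91 ± 0.14 (adjusted p = 7.54e-05) in ER47 on the log2(FPKM + 1) scale by limma with BH adjustment. In ER42 it was -0.34 (limma BH-adjusted p = 0.0686), with all 3 libraries under the parental ones, and passed without replicate 3 of ER5 (0.0322) or of ER47 (0.0360). In ER28 it was -0.06 (95% confidence interval -0.36 to 0.24, limma BH-adjusted p = 0.787), and its sign turned to 0.033 after quantile normalization and to 0.017 without ER28 replicate 2.

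SPRY1 had 2.94, 2.90 and 2.18 FPKM in ER5, 19.3, 16.8 and 21.3 in ER28, 6.63, 7.31 and 9.97 in ER29, 5.78, 6.32 and 11.5 in ER42, 4.96, 4.12 and 7.88 in ER47, against 13.7, 10.2 and 12.9 in the parental line. SPRY1 was the only member whose resistant libraries all lay above the parental ones in any line: this was the case in ER28, at 156% of the parental mean. That difference, 0.60 on the log2(FPKM + 1) scale (95% confidence interval 0.11 to 1.10), did not pass the test (limma BH-adjusted p = 0.0557), although it passed with a filter at FPKM 5 (0.0433), with a replicate block (0.0261) and without replicate 1 or 3 of ER42 or replicate 2 or 3 of ER47. SPRY1 fell in ER5 by 1.85 and in ER47 by 1.03 on that scale (limma BH-adjusted p = 7.4e-06 and 0.00188). The 3 libraries of ER42 ran from 5.78 to 11.5 FPKM and overlapped the parental ones, and the call of lower there, -0.63 (limma BH-adjusted p = 0.0426), was lost without a filter (0.0845), with median-of-ratios scaling (0.0502), with quantile normalization (0.0842) and without Parental replicate 1 (0.13), Parental replicate 3 (0.104), ER5 replicate 2 (0.0501), ER28 replicate 1 (0.0525), ER42 replicate 1 (0.16) or ER42 replicate 2 (0.139). In ER29 the difference was -0.57 (limma BH-adjusted p = 0.0513) and did not pass, with all 3 ER29 libraries below the lowest parental one; it passed under the replicate block (0.0242) and under 7 other alternatives.

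SPRED2 measured 15.7, 19.0 and 17.8 FPKM in ER5, 24.1, 23.1 and 23.6 in ER28, 16.6, 14.9 and 17.8 in ER29, 28.4, 28.1 and 23.2 in ER42, 16.2, 17.1 and 22.0 in ER47, against 32.2, 31.9 and 32.0 in the parental line. SPRED2, which holds neurofibromin at the membrane to act on RAS, differed in the mean of the 5 lines by -0.65 ± 0.08 (SE, limma BH-adjusted p = 8.05e-06) on the log2(FPKM + 1) scale. It was lower in 4 lines by limma with BH adjustment, -0.84 ± 0.10 (adjusted p = 6.76e-06) in ER5, -0.43 ± 0.10 (adjusted p = 0.00484) in ER28, -0.93 ± 0.10 (adjusted p = 3.77e-06) in ER29, and -0.77 ± 0.10 (adjusted p = 2.37e-05) in ER47, and its resistant and parental libraries did not overlap in any line. In ER42 SPRED2 was at 82.9% of the parental mean, with a difference of -0.27 on the log2(FPKM + 1) scale that did not pass (limma BH-adjusted p = 0.0541).

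**Figure D2:**
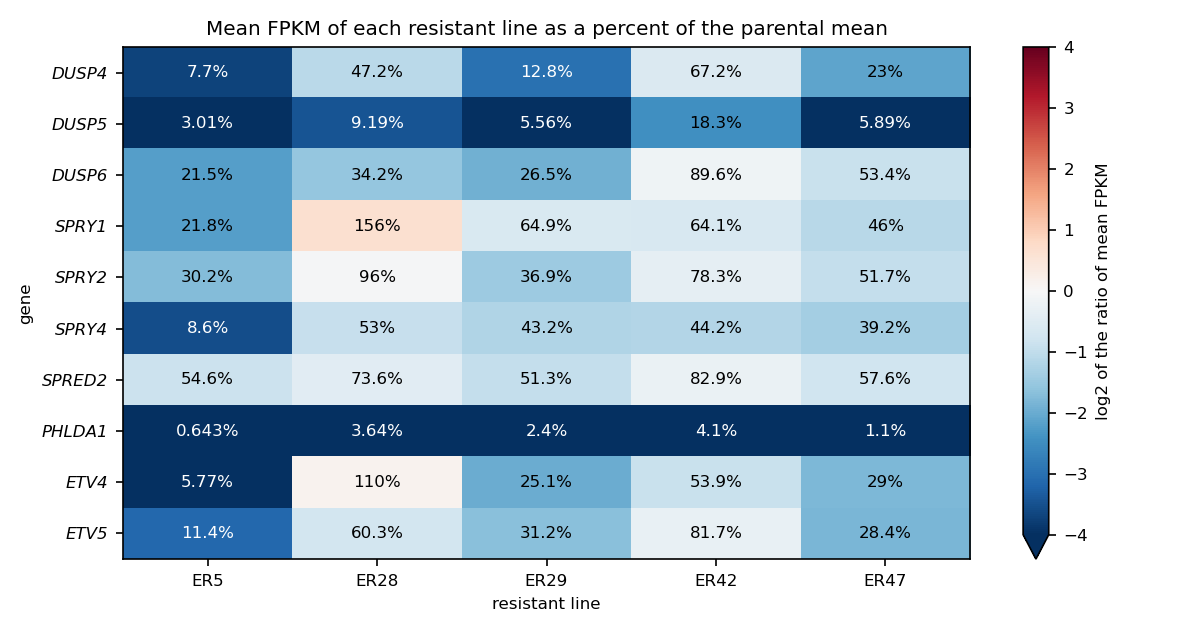
Mean FPKM of each gene in each resistant line as a percentage of its parental mean, coloured on a log2 scale of the ratio on which all ratios below the end of the scale share the darkest colour. PHLDA1 and DUSP5 stayed under 20% in each of the 5 lines, while SPRY1 and ETV4 in ER28 stood at 156% and 110%.

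PHLDA1 had the largest difference of the 10 genes, in each of the 5 lines. PHLDA1 had 0.0596, 0.0587 and 0.240 FPKM in ER5, 0.672, 0.687 and 0.669 in ER28, 0.400, 0.426 and 0.511 in ER29, 1.45, 0.468 and 0.364 in ER42, 0.113, 0.168 and 0.335 in ER47, against 19.4, 18.01 and 18.3 in the parental line. The highest resistant library, at 1.45 FPKM, was far below the lowest parental one, at 18.01 FPKM, and the mean in the resistant lines was 0.643% of the parental mean in ER5 and 4.10% in ER42, the line with the most. The PHLDA1 difference was -4.13 ± 0.17 (adjusted p = 1.2e-10) in ER5, -3.54 ± 0.17 (adjusted p = 1.48e-09) in ER28, -3.76 ± 0.17 (adjusted p = 5.77e-10) in ER29, -3.52 ± 0.17 (adjusted p = 2.41e-09) in ER42, and -4.03 ± 0.17 (adjusted p = 3.42e-10) in ER47 on the log2(FPKM + 1) scale by limma with BH adjustment. With a pseudocount of 0.1 the ER5 difference became -6.51, so its size rests on values close to 0. Within ER42, replicate 1 had 1.45 FPKM and the other libraries 0.468 and 0.364. In GENCODE 29, PHLDA1 overlaps AC011611.3, a gene on the opposite strand known only by its clone name, which had 0 to 2.94 FPKM in the resistant libraries against 27.9 to 29.8 in the parental ones. No source used here states whether counting used strand, and without it reads of this pair cannot be told apart.

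The PEA3 factors ETV4 and ETV5 were lower in 4 lines each, and the exception differed: ER28 for ETV4 and ER42 for ETV5. ETV4 had 1.14, 1.90 and 1.57 FPKM in ER5, 30.8, 27.0 and 29.6 in ER28, 6.04, 5.99 and 7.98 in ER29, 13.3, 16.3 and 13.4 in ER42, 6.53, 6.30 and 10.3 in ER47, against 27.7, 25.8 and 26.3 in the parental line. ER5 stood at 5.77% of the parental mean and ER28 at 110%, with the ER28 libraries overlapping the parental ones. The ETV4 difference in ER28 was 0.13 on the log2(FPKM + 1) scale (95% confidence interval -0.21 to 0.46, limma BH-adjusted p = 0.585). In the other lines ETV4 fell, by limma with BH adjustment, with differences of -3.45 ± 0.16 (adjusted p = 2.71e-10) in ER5, -1.86 ± 0.16 (adjusted p = 2.36e-07) in ER29, -0.85 ± 0.16 (adjusted p = 0.000578) in ER42, and -1.69 ± 0.16 (adjusted p = 6.63e-07) in ER47 on that scale. ETV4 overlaps DHX8 on the opposite strand, which had 29.6 to 36.4 FPKM in the resistant libraries against 35.9 to 39.6 in the parental ones. ETV5 had 2.57, 3.92 and 3.84 FPKM in ER5, 20.7, 16.6 and 17.4 in ER28, 8.71, 8.80 and 10.8 in ER29, 29.1, 26.7 and 18.3 in ER42, 6.31, 7.29 and 12.2 in ER47, against 28.9, 31.2 and 30.6 in the parental line. ER5, ER29 and ER47 were well below the parental libraries, ER28 was lower with a difference of -0.71 ± 0.20 (SE, limma BH-adjusted p = 0.013), and ER42 had 1 library inside the parental range. ETV5 differed on the log2(FPKM + 1) scale by -2.83 ± 0.20 (adjusted p = 2.51e-08) in ER5, -1.59 ± 0.20 (adjusted p = 1.19e-05) in ER29, and -1.75 ± 0.20 (adjusted p = 5.62e-06) in ER47 by limma with BH adjustment. In ER42 its difference was -0.31 (95% confidence interval -0.74 to 0.13, limma BH-adjusted p = 0.243).

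**Figure D3:**
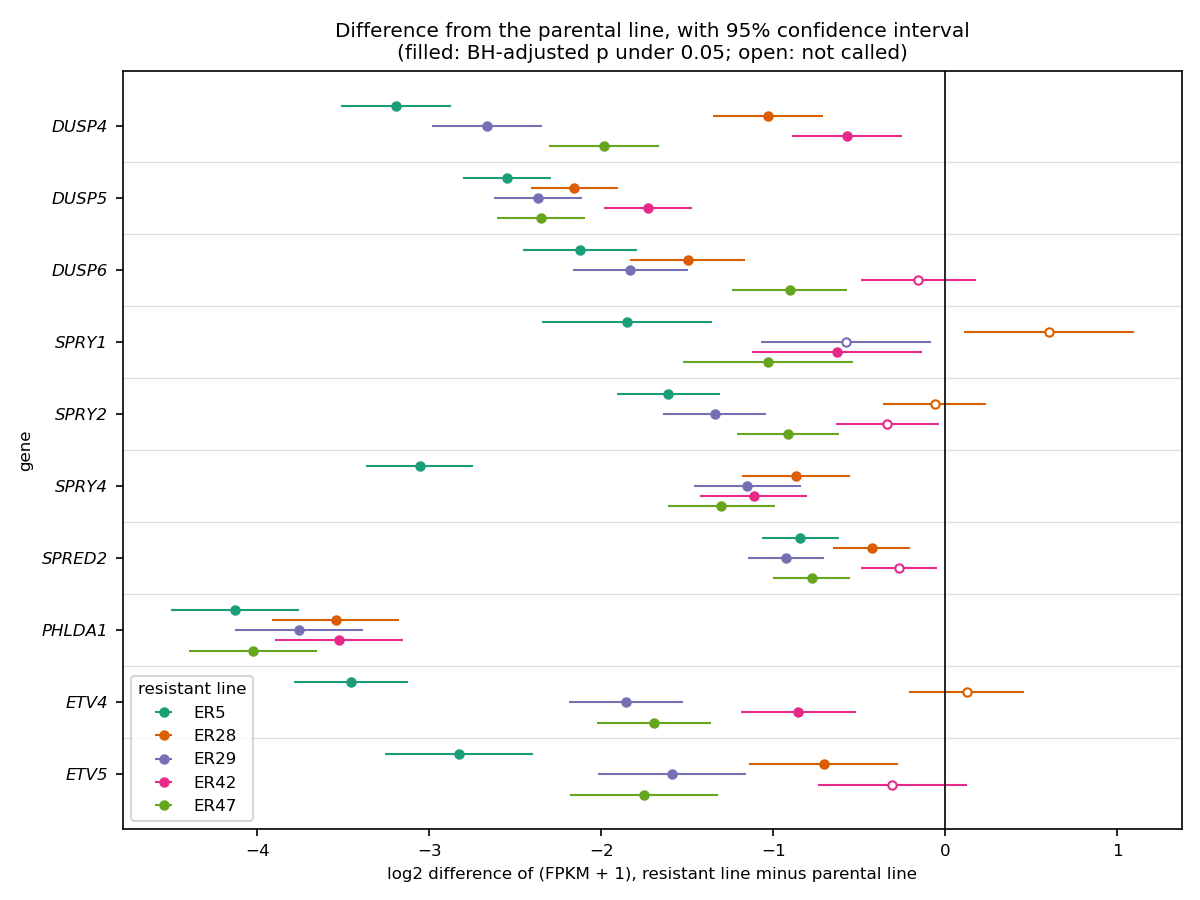
Difference from the parental line on the log2(FPKM + 1) scale for each gene and resistant line, with bars for the 95% confidence interval of the limma fit. The intervals of DUSP6 in ER42, SPRY2 in ER28, ETV4 in ER28 and ETV5 in ER42 include 0.

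The 5 resistant lines were not alike. In the moderated F test of limma among the 5 lines, all 10 genes differed, against 52.3% of all genes. The adjusted p ran from 1.02e-08 for ETV4 to 0.0216 for PHLDA1. PHLDA1 was no longer called with a filter at FPKM 5 (0.199), after quantile normalization (0.137) or without replicate 1 (0.0526) or 2 (0.0555) of ER5, and DUSP5 was no longer called with the filter at FPKM 5 (0.167). ER5 had the lowest mean of the resistant lines for 9 genes, all but SPRED2, for which ER29 was lowest. ER42 had the highest mean for 6 genes and ER28 for 4. How often each line is lowest or highest over all genes was not computed. These counts therefore have no background share, and the 10 genes correlate with one another. For PHLDA1, no resistant line was called different from its neighbour in the order of means. SPRY4 had ER5 below the other 4 lines, which ran ER47, ER29, ER42 and ER28 with no neighbours called different. The ETV4 means rose in the order ER5, ER29, ER47, ER42, parental and ER28, where ER29 and ER47 (limma BH-adjusted p = 0.623) and parental and ER28 were not separated. The ETV5 order was ER5, ER47, ER29, ER28, ER42 and parental, and ER47 and ER29 (0.720), ER28 and ER42 (0.178) and ER42 and parental were not separated. DUSP6 ran ER5, ER29, ER28, ER47, ER42 and parental, with no call between ER5 and ER29 (0.220), ER29 and ER28 (0.144) or ER42 and parental.

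Set against ER28, ER5 was lower for all 10 genes, where 17.0% of all genes were lower, and set against ER42 it was again lower for all 10, where 21.4% were lower. The largest of these differences was in ETV4, at 1.53 ± 0.382 FPKM in ER5 and 29.1 ± 1.93 FPKM in ER28 (SD, n = 3 each), a log2(FPKM + 1) difference of -3.58 ± 0.16 (SE, limma BH-adjusted p = 9.59e-10). The PHLDA1 and DUSP5 calls against ER28 were lost with the filter at FPKM 5 (0.107 and 0.325) and after quantile normalization (0.0789 and 0.304), the PHLDA1 call also without ER5 replicate 1 (0.0526) or 2 (0.0581) and the DUSP5 call without replicate 3 of ER5 (0.0751) or ER28 (0.0763). Against ER42, PHLDA1 was lost with that filter (0.0862) and that normalization (0.202). ER5 was lower than ER47 for 7 genes, against 9.16% of all genes, and lower than ER29 for 5, against 9.57%. The SPRY1 call against ER47 was lost without replicate 3 of ER5 (limma BH-adjusted p = 0.0611) or of ER47 (0.108). ER29 was lower than ER42 for 7 genes, against 15.5% of all genes, with DUSP5 lost at the filter at FPKM 5 (0.112). ER29 and ER47 were nearest to each other, with 2 of the 10 genes lower in ER29, against 2.05% of all genes: DUSP4 and DUSP6 differed by -0.68 ± 0.15 (SE, limma BH-adjusted p = 0.0172) and -0.93 ± 0.16 (SE, limma BH-adjusted p = 0.00367). The DUSP4 call was lost without ER29 replicate 2 (limma BH-adjusted p = 0.0642), ER29 replicate 3 (0.0627) or ER47 replicate 3 (0.0681). ER42 was higher than ER47 for 7 genes, against 11.8% of all genes, and for 6 to 8 without single libraries. DUSP5 was lost there with the filter at FPKM 5 (0.151) and SPRY2 without ER47 replicate 1 (0.0518). ER28 was higher than ER29 for 6 genes and lower for none, where 12.6% of all genes were higher. The scaling bears on comparisons with ER47: genes called higher made up 60.4% of the calls in ER42 against ER47 and 63.4% in ER29 against ER47, but 43.9% and 49.2% after quantile normalization.

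ER28 and ER42, the lines with the smallest median differences from the parental line, had different genes near the parental level. Of the 10 genes, 2 were higher and 3 lower in ER28 than in ER42, against 10.8% of all genes higher and 10.4% lower. SPRY1 was higher in ER28, at 19.1 ± 2.25 FPKM against 7.87 ± 3.16 in ER42 (SD, n = 3 each), a log2(FPKM + 1) difference of 1.23 ± 0.23 (SE, limma BH-adjusted p = 0.00158). ETV4 was also higher in ER28, at 29.1 ± 1.93 FPKM against 14.3 ± 1.68 in ER42, a difference of 0.98 ± 0.16 (SE, limma BH-adjusted p = 0.000425). DUSP6 went the other way, with 15.8 ± 2.29 FPKM in ER28 against 41.4 ± 3.18 in ER42, a difference of -1.34 ± 0.16 (SE, limma BH-adjusted p = 2.68e-05). DUSP4 and DUSP5 were also lower in ER28, by -0.46 ± 0.15 (SE, limma BH-adjusted p = 0.0413) and -0.43 ± 0.12 (SE, limma BH-adjusted p = 0.0199). The DUSP4 call was lost under 13 of the 24 alternatives, among them a pseudocount of 0.1, no filter, quantile normalization and the replicate block (0.0558), and without any 1 of the parental or ER28 libraries, ER5 replicate 2 or ER42 replicate 1 or 2 (0.0501 to 0.175). The DUSP5 call was lost with a pseudocount of 0.1 (0.0746), a filter at FPKM 5 (0.326), quantile normalization (0.253) and without ER28 replicate 1 (0.0755) or ER42 replicate 1 (0.0882). Against ER47, ER28 was higher for 6 genes and lower for 1, DUSP6, where 11.4% of all genes were higher and 6.00% lower. The higher share of those calls was 65.5%, and 52.2% after quantile normalization. DUSP6 was no longer called there without ER28 replicate 2 (limma BH-adjusted p = 0.0642) or ER47 replicate 3 (0.0615). The SPRED2 call in the same comparison was lost without a filter (0.0627), with median-of-ratios scaling (0.0631), after quantile normalization (0.0690) and without any 1 of the ER28 libraries or ER47 replicate 1 or 2 (0.0518 to 0.148), and 5 to 8 genes were called when single libraries were left out.

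The dosing interval in the mouse divides the resistant lines into 3 from 4-hour dosing and 2 from 6-hour dosing. It was tested on the 5 line means, because the line and not the library is the replicate of a dosing interval. None of the 10 genes passed, where 3 of 19799 genes did (0.0152%) and 860 had an unadjusted p under 0.05 by limma. DUSP6 came nearest: its line means were 9.93, 15.8 and 12.3 FPKM in ER5, ER28 and ER29 against 41.4 and 24.7 FPKM in ER42 and ER47. The log2(FPKM + 1) difference was -1.29 ± 0.28 and did not pass (SE, 95% confidence interval without adjustment -1.97 to -0.60, limma BH-adjusted p = 0.829). With so few lines, this says little about any of the 10 genes, DUSP6 included.

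Relatives of the 10 genes did not move as a block. ETV1, the other PEA3 factor, was lower in 4 lines and higher in ER28: it averaged 4.18 ± 0.770 FPKM in ER5, 42.2 ± 3.10 in ER28 and 8.41 ± 0.264 in ER29, then 11.4 ± 0.651 in ER42 and 8.89 ± 0.795 in ER47, against 16.4 ± 1.47 in the parental line (SD, n = 3 each). The log2(FPKM + 1) difference was 1.31 in ER28 (limma BH-adjusted p = 1.55e-07) and -1.75 in ER5 (limma BH-adjusted p = 2.99e-09). The 3 PEA3 factors thus had their highest resistant-line mean in ER28 for ETV1 and ETV4, and in ER42 for ETV5. Of the other Sprouty-related genes, SPRED1 was called in no line and differed by 0.18 ± 0.09 (SE, limma BH-adjusted p = 0.131) in the mean of the 5 lines. SPRED3 was lower in ER5, ER29 and ER47, and SPRY3, at most 1.06 FPKM, was not tested.

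Of 7 other MAP kinase phosphatases, 6 were tested, and in the mean of the 5 lines 2 were higher, 2 lower and 2 not called, near the 23.9% and 28.9% of all genes. DUSP2, a nuclear phosphatase first known from immune cells, ran against DUSP4 and DUSP5. It averaged 21.0 ± 3.10 FPKM in ER5, 18.9 ± 1.41 in ER28 and 13.5 ± 0.612 in ER29, then 4.96 ± 3.45 in ER42 and 12.5 ± 1.98 in ER47, against 0.852 ± 0.0362 in the parental line (SD, n = 3 each). DUSP2 was higher in each of the 5 lines, as 5.63% of all genes were, with a mean difference of 2.86 ± 0.23 (SE, limma BH-adjusted p = 1.15e-07) on the log2(FPKM + 1) scale. DUSP10, which acts on JNK and p38, was higher in 4 lines and not called in ER42, at 3.80 ± 1.39 FPKM against 3.57 ± 0.0820 FPKM in the parental line (limma BH-adjusted p = 0.886). DUSP7, a cytoplasmic ERK phosphatase like DUSP6, was lower in all 5 lines: its means were 4.95 to 5.89 FPKM in the resistant lines against 18.7 ± 1.36 FPKM in the parental line, a mean difference of -1.61 ± 0.08 (SE, limma BH-adjusted p = 1.11e-09). DUSP8 was also lower in all 5, by -1.38 ± 0.13 (SE, limma BH-adjusted p = 5.96e-07) in the mean of the 5 lines, and ranged from 0.423 ± 0.113 FPKM in ER5 to 3.57 ± 1.07 in ER42, against 6.14 ± 0.0373 in the parental line. DUSP1 was called higher in 1 line, ER5, DUSP16 in ER5 and ER47, and DUSP9, at most 0.709 FPKM, was not tested.

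**Figure D4:**
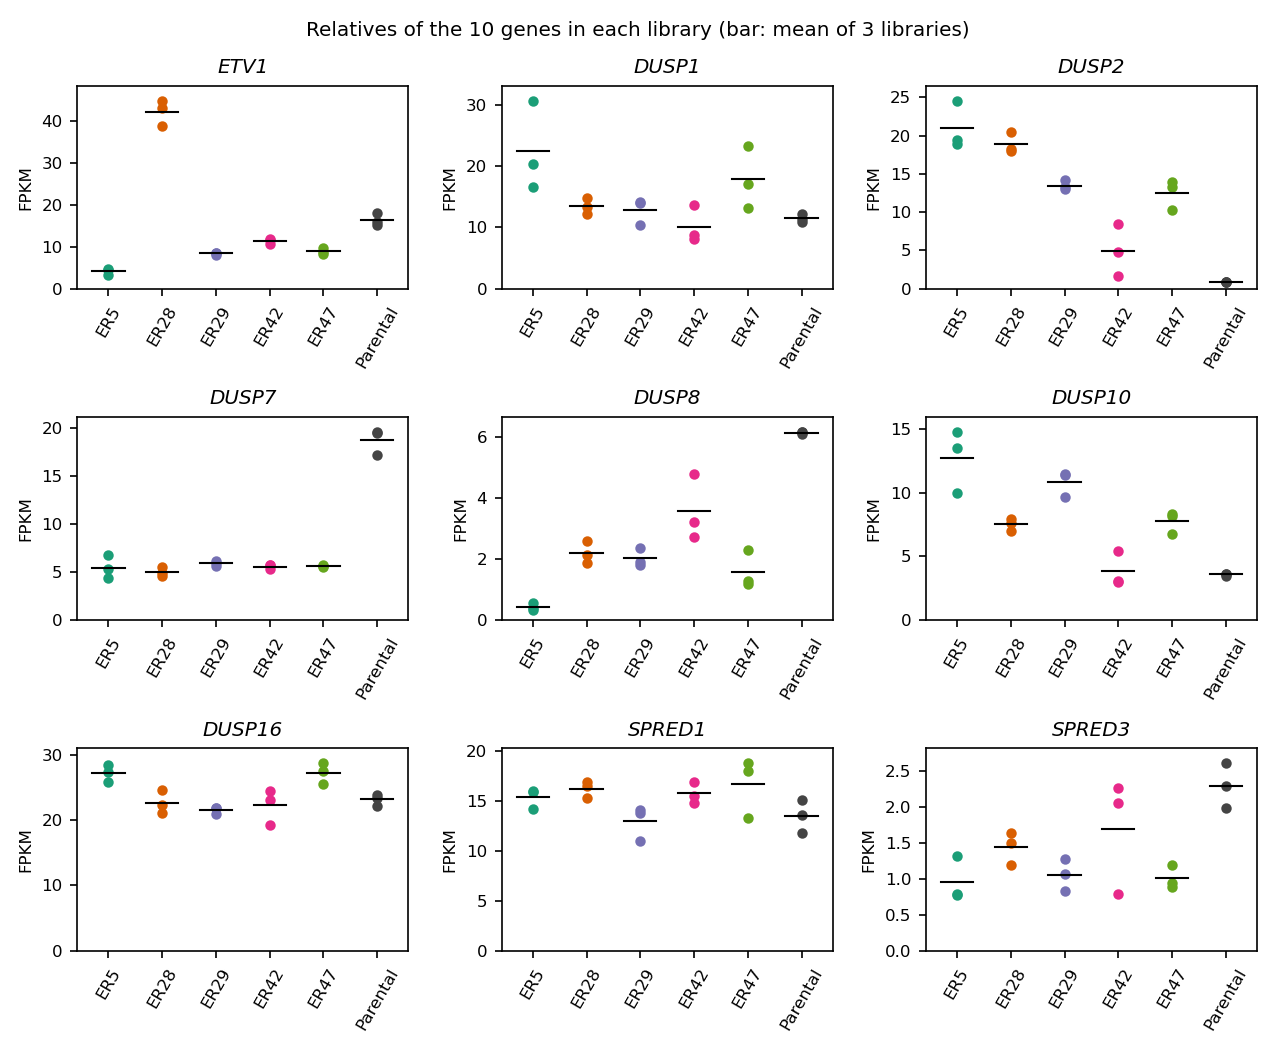
FPKM of ETV1 and of the other tested MAP kinase phosphatases and SPRED genes in each library (points, linear axis from 0), resistant lines to the left of the parental line, with a bar at each line's mean. DUSP2 lay at 1.59 FPKM or more in the resistant libraries against a parental mean of 0.852, and DUSP7 was lower in each resistant line, at means of 4.95 to 5.89 against 18.7 FPKM.

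Of 19 other transcripts known to be induced by ERK, 14 were tested, and in the mean of the 5 lines 3 were higher, 5 lower and 6 not called, with a median difference of 0.08. With 23.9% of all genes higher and 28.9% lower, these counts are near the background. The 3 called genes with the largest differences were VGF, which encodes a secreted neuropeptide precursor, at -2.83 ± 0.27 (SE, limma BH-adjusted p = 4.75e-07), MYC, which encodes a growth-promoting transcription factor, at 1.13 ± 0.12 (SE, limma BH-adjusted p = 1.26e-06), and KLF10, which encodes a zinc-finger repressor, at -0.84 ± 0.20 (SE, limma BH-adjusted p = 0.00197) on the log2(FPKM + 1) scale. VGF was lower in 4 lines, and in ER42 it averaged 62.7 ± 33.2 FPKM against 61.01 ± 1.71 FPKM in the parental line. MYC was higher in 4 lines, with 134 ± 28.3 FPKM in ER5 against 42.9 ± 1.51 in the parental line. EPHA4, IER3, LIF and HMGA2 were among those that did not pass the filter. Of 11 kinases and scaffolds of the cascade itself, all tested, 8 were lower, 1 higher and 2 not called in the mean of the 5 lines, with a median of -0.29, beside 28.9% of all genes lower and 23.9% higher. Among the called genes, RPS6KA1, an ERK-activated kinase, differed by -0.71 ± 0.09 (SE, limma BH-adjusted p = 5.25e-06), and MAP2K1, which encodes MEK1, by -0.58 ± 0.07 (SE, limma BH-adjusted p = 7.83e-06). Both were lower in all 5 lines, as 12.3% of all genes were, and BRAF was higher in 4.

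Across the 18 libraries the 10 genes correlated with one another on the log2(FPKM + 1) scale, and the libraries share 6 lines, so these values are a description. Over the 45 pairs, Pearson's r ran from 0.365 for DUSP6 with SPRY1 to 0.975 for DUSP5 with PHLDA1, with a median of 0.777. The protein-coding gene outside the 10 most like each of them, of 12785 considered, was INHBA for PHLDA1 (r = 0.991), PXDNL for DUSP5 (0.989), TSPAN13 for DUSP4 (0.987) and MSH6 for ETV4 (0.983). For the others it was HIST2H2BF for SPRY2 (0.980), ELOVL6 for DUSP6 (0.978), BEGAIN for ETV5 (0.978), AKAP12 for SPRY4 (0.975), UBE2N for SPRED2 (0.962) and SGCE for SPRY1 (0.937).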

How the data were processed

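Total RNA was extracted with the Qiagen AllPrep kit and libraries were made after ribosomal RNA depletion (KAPA RNA HyperPrep with RiboErase), per the labels' protocols. They were sequenced on HiSeq 2500 and NextSeq 550 instruments, and because the labels do not tie libraries to instruments, no sequencing batch could be tested. The authors deposited 1 table of FPKM values for all 18 libraries. STAR 2.5.3, featureCounts (Subread 1.5.0-p1), STAR-Fusion and the build hg19 are named in the submitters' processing notes, without roles. For the tool behind the FPKM values and for the strand setting, the sources used here give nothing. The column of replicate 1 of ER29 carries a shortened name and was matched to that library by its label.

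Genes with FPKM of at least 1 in at least 3 libraries (19799) were tested in 1 limma 3.58.1 fit (R 4.3.3) with an intensity trend on log2(FPKM + 1), 1 coefficient per line, two-sided, with Benjamini-Hochberg adjustment over all genes tested and a call at adjusted p under 0.05. Dosing intervals were compared over the 5 line means. FPKM are not counts, so no count model was used, and precision is limited by the 3 libraries per line. The fit was tested on simulated data first. The 10 genes, the related lists and the markers were chosen with earlier results of these data known. Beside the 10 genes, every tested gene of the short lists is named, the 3 called genes with the largest mean difference of the longer lists, and the most alike protein-coding gene of each member; some items are not reported here, and other genes named were chosen after their values were seen. Alternatives were a pseudocount of 0.1, no filter, a filter at FPKM 5, median-of-ratios scaling, quantile normalization, a replicate block and leaving out each library in turn. Promoter windows are from RefSeq (GRCh38.p14) and gene overlaps from GENCODE 29.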

Additional observations from a re-analysis of the deposited data

Results flagged for a closer look

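Each of the 10 genes stood out because its difference from the parental line was not the same in the 5 resistant lines, by the moderated F test of limma among those lines with BH adjustment over all genes tested. The adjusted p was 1.02e-08 for ETV4, 4.14e-08 for DUSP4 and 2.06e-07 for SPRY4. It was 1.12e-06 for DUSP6, 1.48e-06 for ETV5, 2.16e-06 for SPRY2 and 1.32e-05 for SPRY1. It was 0.000315 for SPRED2, 0.000466 for DUSP5 and 0.0216 for PHLDA1. The same test called 52.3% of all genes, so a difference among these lines is common. With 3 libraries per line, no line was large enough for a check of single outlying libraries.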

How the results depend on the processing

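Under the 24 alternatives, the number of the 10 genes called lower stayed at 10 in ER5, ER47 and the mean of the 5 lines and at 7 in ER28, and was 9 to 10 in ER29 and 5 to 8 in ER42. Genes called higher in ER28 became 1 (SPRY1) with the filter at FPKM 5 and with the replicate block, and ran from 0 to 1 when libraries were left out. Members called between ER28 and ER42 became 3 with a pseudocount of 0.1 and with quantile normalization, and ran from 3 to 5 without single libraries; between ER29 and ER47 they ran from 1 to 3. All genes called by dosing interval were 0 with a pseudocount of 0.1, 18 without a filter and 0 with the filter at FPKM 5, and 0 to 3 without single libraries. Over the same omissions, all genes called ran from 2268 to 4107 in ER5 against ER29, 2495 to 4444 in ER5 against ER47, 2626 to 4741 in ER28 against ER42, 2096 to 3765 in ER28 against ER47, 460 to 1381 in ER29 against ER47 and 2227 to 4230 in ER42 against ER47. Signs turned for DUSP6 in ER42 (0.027 with quantile normalization) and SPRY2 in ER28 (0.033 with quantile normalization, -0.13 to 0.017 without single libraries, the highest without ER28 replicate 2), all uncalled; the cause was not tested. SPRY1 in ER29 passed without Parental replicate 2 (adjusted p = 0.0434), ER29 replicate 3 (0.0297), ER42 replicate 1 (0.0444) or 3 (0.0201), or ER47 replicate 2 (0.0446) or 3 (0.0321), and with the filter at FPKM 5 (0.0421). SPRED2 in ER42 passed without ER5 replicate 1 (0.0485), ER42 replicate 1 (0.0475), ER47 replicate 1 (0.0453) or 3 (0.0214), and with that filter (0.0434). SPRED1 in the mean of the 5 lines was called after quantile normalization (0.0336) and without ER47 replicate 1 (0.0361), and DUSP16 after quantile normalization (0.0308). The replicate numbers showed no clear pairing of the samples, and this small check cannot exclude one. Over 45 pairs of libraries with the same number, deviations from the line means correlated at -0.263 to 0.230 (median 0.02), and 9 of 18 libraries correlated best with their own number. With the replicate block, SPRY1 in ER28 (0.0261) and ER29 (0.0242) gained a call. FPKM carry no read totals, so no detection floor can be given for the low DUSP5 and PHLDA1 values of the resistant lines.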

Other observations

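In some lines, many of the 10 genes had their highest or lowest values in the same library. In ER5 they did not, as replicates 1, 2 and 3 were highest for 3, 4 and 3 genes. The 10 genes correlate with one another, so they do not count as separate observations beside the all-gene shares. Replicate 3 of ER47 had the highest value of its line for 9 of the 10 genes, whereas it was highest for 34.1% of all genes. Replicate 3 of ER29 was highest for 8, against 28.8% of all genes, and replicate 2 of ER28 was lowest for 8, against 36.9%. Replicate 1 of ER47 was lowest for 7, against 34.3%. In the parental line, replicate 1 was highest for 7, against 36.7% of all genes, and replicate 2 lowest for 6, against 31.6%. The ER47 spread is large for ETV5, at 6.31, 7.29 and 12.2 FPKM, and for DUSP6, at 20.5, 21.4 and 32.2 FPKM. Without replicate 3 of ER47, the differences of ER47 from the parental line on the log2(FPKM + 1) scale were -2.16 for DUSP4 and -1.10 for DUSP6, and all 10 genes were called lower by limma.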
